A study of Mus musculus with 28 samples.

Results

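The 10 genes described here encode enzymes of the glycolytic pathway and its gatekeepers. They are the glucose transporter gene Slc2a1, the hexokinase genes Hk1, Hk2 and Hk3, the phosphofructokinase-1 subunit genes Pfkl and Pfkp, the bifunctional PFKFB genes Pfkfb3 and Pfkfb4, the pyruvate kinase gene Pkm and the lactate dehydrogenase gene Ldha. They were taken by gene symbol from the table of TPM, an abundance measure corrected for transcript length and library total, where they are 10 of 55450 genes, and all 10 were among the 16415 genes that passed the filter on low values. The study converted C10 cells, a mouse Pre-B line derived from HAFTL cells, into macrophages. All groups carried the CEBPalpha-ER transgene, a rat C/EBPα fused to the hormone-binding part of the estrogen receptor. The 0h group was uninduced, and the 1h, 12h and 48h groups were collected after addition of 100 nM β-estradiol together with 10 nM IL-3 and CSF-1. RNA-seq was done in 3 biological replicates per time point (12 libraries), and promoter capture Hi-C (PCHi-C) was deposited as 1 merged list of interactions per time point. The whole time course comes from a single transgenic line, so the estradiol, the cytokines and the elapsed time cannot be told apart.

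Glucose enters a cell through transporters such as GLUT1, the product of Slc2a1, and is trapped by hexokinases as glucose-6-phosphate. Phosphofructokinase-1 then commits the sugar to glycolysis, and its strongest activator, fructose-2,6-bisphosphate, is made and broken down by the PFKFB enzymes, among which PFKFB3 strongly favours synthesis. Pyruvate kinase makes pyruvate at the end of the pathway, and lactate dehydrogenase A turns pyruvate into lactate. Activated macrophages are known for high glycolytic rates, and proliferating precursor B cells also rely on glucose.

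Values are given as scaled TPM. Within each deposited library, 2 ribosomal RNA locus genes took 70.3% to 82.9% of the TPM, the lowest share in a 1h library and the highest in a 48h library. Each library was therefore divided by a median-of-ratios size factor, which ranged from 0.627 to 1.56. Without that step the median log2 fold change over all genes tested moved to 0.59 at 1h, 0.34 at 12h and -0.18 at 48h against 0h, whereas after scaling it was 0.02, 0.07 and 0.07. Changes were tested with limma on log2(scaled TPM + 0.1), and a gene was called when its Benjamini-Hochberg adjusted p over all 16415 genes was under 0.05. Fold values are on this log scale, which understates the change of genes with low values. The TPM table holds no read numbers, so the depth of the libraries is unknown. The 48h replicate 3 library stood apart from the other 48h libraries, with 75.7% of its TPM in the ribosomal RNA genes against 82.9% and 82.7%. Results of the members that rest on this library are given without it. For the other genes of glucose metabolism only the number called at 48h was taken without it, and the values of single genes were not. Replicate 3 also had the lowest ribosomal share at each other time point. That share was 76.9% against 79.8% and 79.3% at 0h, and 70.3% against 73.7% and 74.2% at 1h. At 12h it was 72.8% against 79.5% and 78.1%. In the sample descriptions the replicate 3 libraries of all time points are numbered after all other RNA libraries. What sets replicate 3 apart was not tested.

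The marker genes followed the labels in direction. After 48 h, 13 of 14 Pre-B cell genes had fallen and 10 of 14 macrophage genes had risen (limma). The summed level of the macrophage genes was 13.2 to 15.9 scaled TPM at 0h and 1453 to 1732 at 48h, while that of the Pre-B genes went from 344 to 373 down to 49.0 to 57.0. Csf1r, Itgam, Cd14 and Lyz2 rose, but Mertk and Cd163 were listed at 0 in all 12 libraries and Adgre1 (F4/80) reached only 0.39 scaled TPM in 1 of the 48h libraries. Granulocyte genes summed to at most 0.587 before induction, to at most 17.7 in the 12h libraries and to 43.7 to 63.1 in those of 48h. The same 4 of 11, Camp, Prtn3, S100a8 and Mmp8, were called higher at 12h and at 48h, and Mpo, Elane, S100a9, Ly6g, Ltf, Ngp and Csf3r did not pass the filter. Mmp8 made up most of the 48h sum (37.5 to 60.3 scaled TPM), while Camp was highest after 12 h (mean 7.32 ± 0.980, SD, n = 3, against 0.508 ± 0.197 after 48 h). The paper counts Mmp8 among its macrophage-specific genes, so the 48h sum does not separate the cell types. T and NK cell genes and erythroid genes stayed at or near 0 throughout. In these bulk samples a smaller share of cells of a type and less RNA per cell cannot be told apart, and the part of the granulocyte genes in the results below was not tested.

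Most of the glycolytic genes were highest 12 h after induction, but the members did not move as a block. The mean level was highest at 12h for 6 of the 10 genes, against 17% of all genes tested. For Hk1 and Hk3 it was highest at 48h (35.2% of all genes), for Pfkfb3 at 1h (19.9%) and for Ldha at 0h (27.8%). Slc2a1, Hk2, Pfkl and Pfkp rose between 1h and 12h and fell again between 12h and 48h, both steps passing the test, a course that 1.64% of all genes tested followed. At 1h against 0h, 1 member was called higher and 1 lower, where 5.42% of all genes were called higher and 4.92% lower (10.3% in either direction). At 12h against 0h, 7 members were higher and the other 3 did not pass, where 16% of all genes were called higher and 14.5% lower (30.4% in either direction). At 48h against 0h, 4 members were higher and 2 lower, where 24.5% of all genes were called higher and 22% lower (46.5% in either direction), a share near that of the members. From 1h to 12h, 8 members rose and 1 fell, with 11.3% of genes called higher and 8.77% lower (20% in either direction). From 12h to 48h, 1 rose and 6 fell, with 10.5% called higher and 11.9% lower (22.4% in either direction). When a log2 fold change beyond 1 was required as well, the members called were 1, 5 and 5 against 0h at 1h, 12h and 48h, where 6.91%, 21.4% and 37.2% of all genes passed, 8 from 1h to 12h (13.4%) and 4 from 12h to 48h (15.3%).

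All 3 libraries of the later time point lay above all 3 of 0h for 1 member at 1h (16.3% of all genes), 7 at 12h (23.7%) and 5 at 48h (27.2%). They lay below for 4 at 1h (16.2%), 1 at 12h (21.3%) and 2 at 48h (23.9%). From 1h to 12h the libraries of 9 members were all higher (20.3%) and of 1 all lower (19.3%), and from 12h to 48h those of 1 were all higher and of 7 all lower (17.3% each). Over the 10 members the median log2 fold changes of the 1h, 12h and 48h groups against 0h were -0.36, 1.02 and 0.28, beside 0.02, 0.07 and 0.07 for all genes tested. The comparisons share libraries: the 3 with 0h use the same controls, and the 12h libraries stand in 3 of them.

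**Figure D1:**
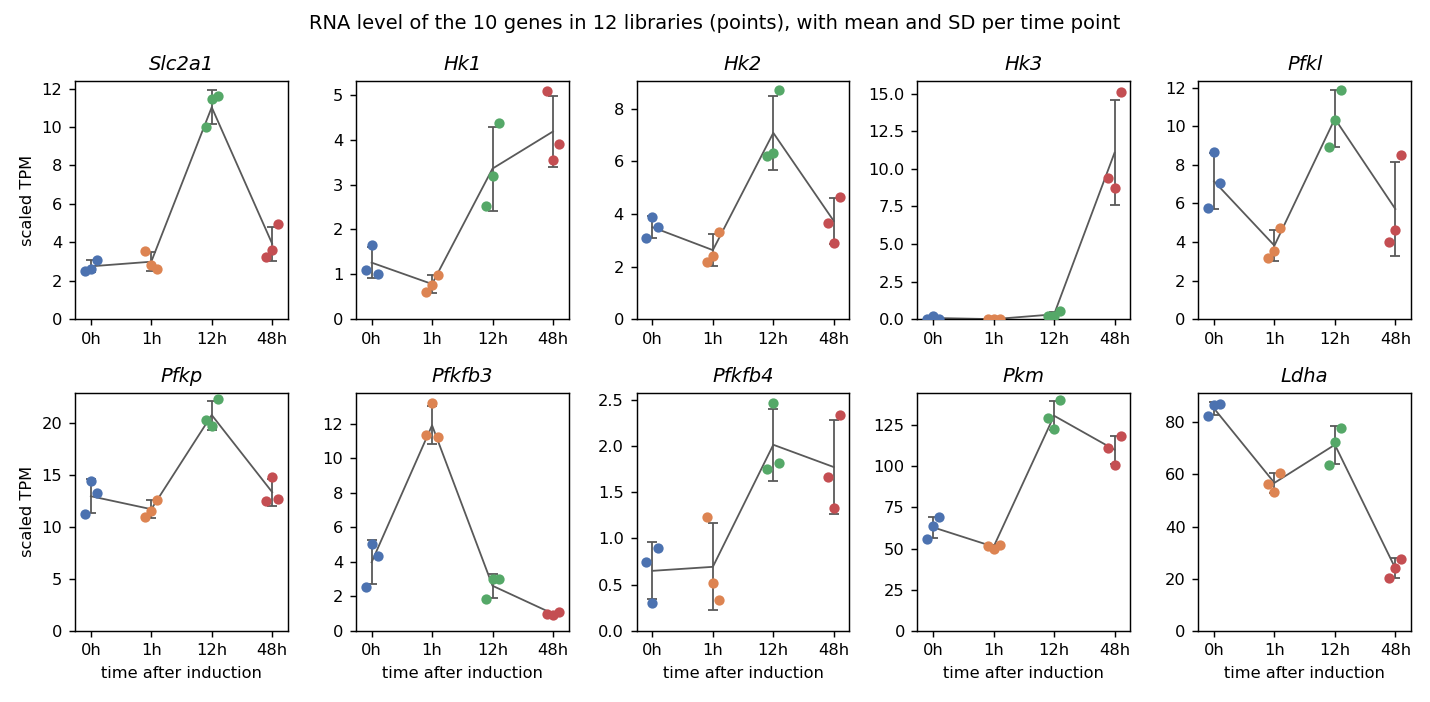
Scaled TPM of each of the 10 genes (y axis, from 0, a separate scale for each gene) in the 3 libraries of each time point (x axis, hours after induction). Points are libraries, and the line joins the means with SD bars. Slc2a1, Hk2, Pfkl and Pfkp peak at 12h, Pfkfb3 at 1h, Hk3 appears at 48h and Ldha ends lowest at 48h.

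The promoters of the genes with the most different time courses are shown for reference: Hk2, with a 12h peak, Hk3, which appeared at 48h, Pfkfb3, which peaked at 1h, and Ldha, which fell. Each is the 250 bases upstream of a RefSeq transcription start in GRCm38.p6, written 5′ to 3′ on the strand of the gene. Capitals mark ACGTG, the core of the hypoxia response element bound by HIF, and GGGCGG, the GC box, on either strand. CACGTG, the E-box that MYC-family proteins bind, contains ACGTG and is read as such on both strands.
Hk2, chr6:82774455-82774704, minus strand: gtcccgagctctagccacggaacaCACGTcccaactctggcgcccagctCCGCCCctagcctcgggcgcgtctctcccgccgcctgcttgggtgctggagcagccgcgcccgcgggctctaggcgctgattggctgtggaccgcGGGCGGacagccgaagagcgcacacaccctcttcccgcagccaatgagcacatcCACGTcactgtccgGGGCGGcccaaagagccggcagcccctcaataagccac
Hk3, chr13:55021386-55021635, minus strand: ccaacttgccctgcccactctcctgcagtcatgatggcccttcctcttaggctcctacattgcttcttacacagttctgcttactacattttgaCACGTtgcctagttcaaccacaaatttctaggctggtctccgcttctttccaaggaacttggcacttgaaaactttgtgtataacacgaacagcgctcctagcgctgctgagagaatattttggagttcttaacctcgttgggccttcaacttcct
Pfkfb3, chr2:11502091-11502340, minus strand: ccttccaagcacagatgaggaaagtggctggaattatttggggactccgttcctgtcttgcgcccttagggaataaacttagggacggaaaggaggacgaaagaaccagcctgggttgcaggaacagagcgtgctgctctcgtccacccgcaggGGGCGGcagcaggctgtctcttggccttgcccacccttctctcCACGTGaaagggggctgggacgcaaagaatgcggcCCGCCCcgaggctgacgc
Ldha, chr7:46845554-46845803, plus strand: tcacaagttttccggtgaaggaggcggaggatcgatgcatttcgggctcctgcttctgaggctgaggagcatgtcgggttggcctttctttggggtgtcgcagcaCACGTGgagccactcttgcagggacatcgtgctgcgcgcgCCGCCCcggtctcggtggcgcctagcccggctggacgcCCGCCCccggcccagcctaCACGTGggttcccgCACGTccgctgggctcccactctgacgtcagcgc

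The Ldha window shown held 2 CACGTG matches and 1 further ACGTG match, and the Pfkfb3 window shown held 1 CACGTG match. RefSeq gives both genes a further start: the other Ldha window held none of the motifs searched, and the other Pfkfb3 window held 1 ACGTG match, 2 GC boxes and no CACGTG. The Hk2 window held 2 ACGTG matches and 3 GC boxes, and its GC content was 69.6%. The Hk3 window differed in composition, with a GC content of 47.2%, a single ACGTG match and no GC box. RefSeq gives 14 such starts for the 10 genes, and ACGTG was present in 7 of these 14 windows (6 genes), CACGTG in 2 (2 genes) and GGGCGG in 8 (7 genes). Over all 32851 promoter windows of this length, ACGTG was found in 16.572%, CACGTG in 6.021% and GGGCGG in 32.742%. The C/EBP motif TTGCNNAA was found in 1 of the 14 windows, upstream of Pkm, and in 9.564% of all windows. The PU.1 motif GAGGAAGT was in none of the 14 member windows and in 2.441% of all. These matches describe the letters in the windows and were not related to the RNA changes by any test.

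Slc2a1 (ENSMUSG00000028645, chr4:119108711-119137983 in GRCm38, plus strand) encodes the basal glucose transporter. Its level was 2.52, 2.63 and 3.10 scaled TPM in the 0h libraries and 3.54, 2.83 and 2.60 at 1h. It was 10.0, 11.4 and 11.6 at 12h, and 3.25, 3.58 and 4.94 at 48h. The 12h libraries lay far above all others, and the 0h and 1h libraries overlapped. The rise at 12h was 3.91-fold over 0h (log2 fold change 1.97, SE 0.18, adjusted p 1.65e-05, limma), and the 48h level was 0.357 times the 12h level (log2 fold change -1.49, SE 0.18, adjusted p 0.000168). All 48h libraries were above all 0h libraries, yet the difference did not pass the test (log2 fold change 0.48, SE 0.18, adjusted p 0.0523), and with TPM as deposited it was 0.0816 (adjusted p 0.832). It passed only with quantile normalization (adjusted p 0.0484), with a stricter filter (0.0391) and without 48h replicate 1 (0.0253) among the 22 alternatives.

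The 3 hexokinase genes parted from each other. Hk1 (ENSMUSG00000037012, chr10:62268855-62379908, minus strand) encodes the broadly expressed hexokinase of mitochondria. It was at 1.11, 1.66 and 1.01 scaled TPM at 0h and 0.603, 0.759 and 0.988 at 1h. It was at 2.51, 3.19 and 4.37 at 12h, and 5.08, 3.55 and 3.91 at 48h. The 12h and 48h libraries overlapped and lay above all 0h and 1h libraries. Hk1 was 3.18-fold higher at 48h than at 0h (log2 fold change 1.67, SE 0.27, adjusted p 0.000364, limma) and had already risen at 12h (1.34, SE 0.27, adjusted p 0.00308).

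Hk2 (ENSMUSG00000000628, chr6:82725025-82774454, minus strand), the inducible hexokinase of growing cells, gave 3.07, 3.90 and 3.52 scaled TPM at 0h and 2.18, 2.39 and 3.32 at 1h. It gave 6.23, 6.32 and 8.73 at 12h, and 3.65, 2.91 and 4.64 at 48h. Its 12h libraries were above all others, and the 48h libraries overlapped those of 0h. The 12h level was 1.98 times that of 0h (log2 fold change 0.99, SE 0.22, adjusted p 0.00622, limma) and had fallen by 48h (log2 fold change -0.91, SE 0.22, adjusted p 0.0124). The fall missed the threshold without 12h replicate 3 (adjusted p 0.0553). At 48h Hk2 differed from 0h by 0.07 on the log2 scale (SE 0.22, adjusted p 0.83), and this small difference turned to -0.32 with TPM as deposited.

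Hk3 (ENSMUSG00000025877, chr13:55005985-55021385, minus strand), the hexokinase of myeloid cells, was listed at 0 in 2 of the 0h libraries and at 0.239 scaled TPM in the other, and at 0 in all 1h libraries. It gave 0.216, 0.216 and 0.532 at 12h. At 48h it reached 9.40, 8.73 and 15.1, far above every earlier library. The log2 fold change was 6.17 (SE 0.48, adjusted p 1.35e-06, limma) against 0h and 4.77 (SE 0.48, adjusted p 3.71e-05) against 12h. The small rise from 0h to 12h (log2 fold change 1.41, SE 0.48, adjusted p 0.0474) rested on libraries that overlapped, and it lost its call under 17 of the 22 alternative settings, among them the omission of any library other than 0h replicate 2, with adjusted p of up to 0.281. From 1h to 12h the rise was called (1.99, SE 0.48, adjusted p 0.0133) but not without 12h replicate 3 (adjusted p 0.0556) or with a pseudocount of 1 (0.178).

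The composition of the hexokinase RNA therefore changed, and this was measured as the percentage of the summed TPM of the 3 genes within each library, which does not depend on the scaling between libraries. In uninduced cells Hk2 made up 72.8% ± 5.27 (SD, n = 3). It made up 77.1% ± 1.20 after 1 h and 66.2% ± 2.94 after 12 h, and no more than 19.6% ± 0.474 after 48 h. Hk3 went from 0%, 4.12% and 0% in the 0h libraries and 0% in every 1h library to 2.84% ± 0.924 at 12h and 57.7% ± 5.99 at 48h. Hk1 stayed between 16.5% and 32.8% in all 12 libraries. The shares of Hk2 and Hk3 differed among the time points (exact permutation tests over 4 time points, two-sided, p = 0.000844 and p = 0.0026, adjusted over the 7 shares tested 0.00197 and 0.00455), and that of Hk1 did not pass (exact permutation p = 0.069, adjusted 0.088). Without 48h replicate 1 or 48h replicate 3 the exact p for Hk1 was 0.0167 and 0.0464. Hk2 was thus the predominant hexokinase RNA up to 12h and Hk3 at 48h in every library, although the absolute level of Hk2 at 48h overlapped that of 0h. Any pair of time points is 3 libraries against 3, for which the smallest exact p is 0.1, the value that the 48h vs 0h differences of -53.2 percentage points for Hk2 and 56.3 for Hk3 reached.

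**Figure D2:**
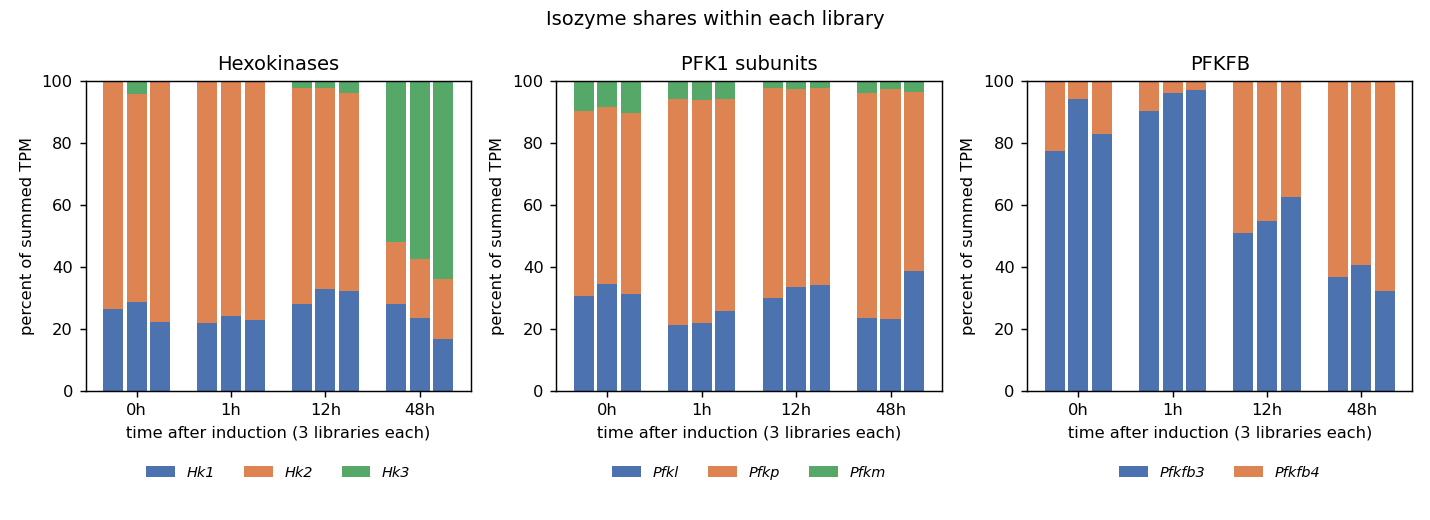
Share of the summed TPM (y axis, percent) taken by each hexokinase, phosphofructokinase-1 subunit and PFKFB gene in each of the 12 libraries (bars, 3 per time point on the x axis). Hk3 fills 51.8% to 63.8% of the hexokinase bar at 48h, and Pfkfb4 outweighs Pfkfb3 at 48h only.

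Pfkl and Pfkp encode the liver-type and platelet-type subunits of phosphofructokinase-1. Pfkl (ENSMUSG00000020277, chr10:77986947-78010083, minus strand) was at 5.75, 8.64 and 7.06 scaled TPM at 0h and 3.19, 3.52 and 4.73 at 1h. It was at 8.94, 10.3 and 11.9 at 12h, and 4.02, 4.60 and 8.51 at 48h. The 1h libraries were all below those of 0h, and the 48h libraries spread over the range of the earlier ones because 48h replicate 3 was far above the others of its group. Pfkl rose from 1h to 12h (log2 fold change 1.43, SE 0.27, adjusted p 0.00339, limma) and fell from 12h to 48h (-0.92, SE 0.27, adjusted p 0.0329). The fall lost its call when 12h replicate 2, 12h replicate 3, 48h replicate 1 or 48h replicate 2 was left out (adjusted p 0.0812 to 0.122), when only the 6 libraries compared were fitted (0.0789) or without the mean-variance trend (0.0519). Against 0h no change of Pfkl passed (adjusted p 0.0648, 0.163 and 0.291 at 1h, 12h and 48h), but without 48h replicate 3 the values at 1h (-0.88, adjusted p 0.0169) and at 48h (-0.69, adjusted p 0.0254) did. The 12h value passed with rescaling to the genes outside the 20 most abundant (0.66, adjusted p 0.0312).

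Pfkp (ENSMUSG00000021196, chr13:6579768-6648777, minus strand) was the more abundant subunit RNA. Its libraries gave 11.2, 14.5 and 13.3 scaled TPM at 0h and 10.9, 11.6 and 12.6 at 1h. They gave 20.3, 19.7 and 22.4 at 12h, and 12.5, 14.9 and 12.7 at 48h. The 12h libraries stood above all others, and the other time points overlapped. The 12h level was 1.60 times that of 0h (log2 fold change 0.68, SE 0.13, adjusted p 0.00244, limma), and at 48h the difference from 0h was 0.05 (SE 0.13, adjusted p 0.816), with the sign depending on the scaling. The rise from 1h to 12h (0.82, SE 0.13, adjusted p 0.00109) missed the threshold with TPM as deposited (0.50, adjusted p 0.0627).

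Among the 3 subunit genes, the share of Pfkm, the muscle-type subunit that was not a member, was 9.55% ± 1.11 (SD, n = 3) in uninduced cells. It fell to 6.05% ± 0.175 after 1 h and 2.33% ± 0.260 after 12 h, and it was 3.40% ± 0.639 in the 48h libraries (exact permutation p = 6.49e-05, the smallest these permutations can give, adjusted 0.000455). The shares of Pfkl and Pfkp did not pass (exact permutation p = 0.157 and 0.0754, adjusted 0.157 and 0.088). In 48h replicate 3 Pfkl made up 38.7% and Pfkp 57.8%, against 23.3% and 23.0%, and 72.7% and 74.3%, in the other 48h libraries. Without that library the exact permutation p was 0.00669 for Pfkl, with a 48h minus 0h difference of -8.82 percentage points, and 0.000519 for Pfkp, with a difference of 15.0 points.

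At 48h against 0h, the bifunctional enzyme genes were called in opposite directions, Pfkfb3 lower and Pfkfb4 higher, the latter call being lost under 3 alternatives. Pfkfb3 (ENSMUSG00000026773, chr2:11471433-11554077, minus strand) was at 2.55, 5.03 and 4.35 scaled TPM at 0h. After 1 h it was at 11.3, 13.2 and 11.2, then at 1.82, 3.00 and 3.01 at 12h. At 48h it was at 0.956, 0.906 and 1.10. The 1h libraries were above and the 48h libraries below every other library. Pfkfb3 was the member called higher at 1h, by 3.05-fold (log2 fold change 1.61, SE 0.26, adjusted p 0.00271, limma). It then fell by 2.18 on the log2 scale from 1h to 12h (SE 0.26, adjusted p 0.000145), and at 48h it stood at 0.277 times its 0h level (log2 fold change -1.85, SE 0.26, adjusted p 0.000136). These 3 calls held under all 22 alternative settings, TPM as deposited included (2.27, -2.51 and -2.21).

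Pfkfb4 (ENSMUSG00000025648, chr9:108991778-109032228, plus strand) was a low-level gene that rose late. It was at 0.747, 0.304 and 0.893 scaled TPM at 0h and 1.23, 0.517 and 0.332 at 1h. It was at 1.75, 2.46 and 1.82 at 12h, and 1.66, 1.32 and 2.33 at 48h. The 12h and 48h libraries overlapped and lay above all those of 0h and 1h. The rise was 2.99-fold at 12h (log2 fold change 1.58, SE 0.44, adjusted p 0.0186, limma) and 2.61-fold at 48h (1.39, SE 0.44, adjusted p 0.0227). It missed the threshold at 12h without 0h replicate 2 (adjusted p 0.0752) or 12h replicate 2 (0.0658), and at 48h without 0h replicate 2 (0.0956) or 48h replicate 3 (0.0743) and with TPM as deposited (0.116).

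Of the summed RNA of Pfkfb3 and Pfkfb4, Pfkfb3 made up 84.9% ± 8.63 (SD, n = 3) before induction and 94.5% ± 3.74 after 1 h. Its share was 56.1% ± 5.82 in the 12h libraries and 36.5% ± 4.23 in those of 48h (exact permutation p = 0.00013, adjusted 0.000455). In each 48h library Pfkfb4 was the more abundant of this pair of RNAs, and in each earlier library Pfkfb3 was. The remaining PFKFB genes, Pfkfb1 and Pfkfb2, were low, with means between 0.18 and 0.851 scaled TPM, and neither passed the test against 0h at any time point.

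Pkm (ENSMUSG00000032294, chr9:59656368-59679375, plus strand) encodes the muscle-type pyruvate kinase. TPM were given per gene, so the M1 and M2 splice forms are not separated here, and reads of near-identical processed pseudogenes can be shared with Pkm and Ldha. Pkm was at 56.0, 63.6 and 69.1 scaled TPM at 0h and 51.5, 50.0 and 51.9 at 1h. It was at 129, 123 and 140 at 12h, and 111, 101 and 118 at 48h. The 12h and 48h libraries lay above all earlier ones, and those of 12h above those of 48h. The rise was 2.08-fold at 12h (log2 fold change 1.06, SE 0.12, adjusted p 5.34e-05, limma) and 1.75-fold at 48h (0.81, SE 0.12, adjusted p 0.000159). With TPM as deposited the 48h value was 0.40 and did not pass (adjusted p 0.0747).

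Ldha (ENSMUSG00000063229, chr7:46841475-46855627, plus strand), whose product makes lactate, was the member whose level ended furthest below its start on the scale of scaled TPM. It was at 82.4, 86.5 and 87.2 at 0h and 56.4, 53.2 and 60.6 at 1h. It was at 63.7, 72.5 and 78.0 at 12h, and 20.1, 24.2 and 27.7 at 48h. The 48h libraries were below all others by a wide margin. At 48h Ldha was at 0.28 times its 0h level (log2 fold change -1.84, SE 0.13, adjusted p 7.85e-07, limma), and the fall from 12h to 48h was of similar size (-1.58, SE 0.13, adjusted p 1.1e-05). Both calls held under every alternative setting. The fall at 1h (-0.59, SE 0.13, adjusted p 0.0179) depended on the scaling: it was 0.07 with TPM as deposited (adjusted p 0.827), and it also lost its call without 0h replicate 2, 0h replicate 3, 1h replicate 1 or 1h replicate 2 (adjusted p 0.0566 to 0.0711). Ldhb, the other somatic lactate dehydrogenase gene, was listed at 0 in all 12 libraries. Ldha stood above Pkm in every 0h and 1h library and below it in every 12h and 48h library, on the per-length scale of TPM.

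**Figure D3:**
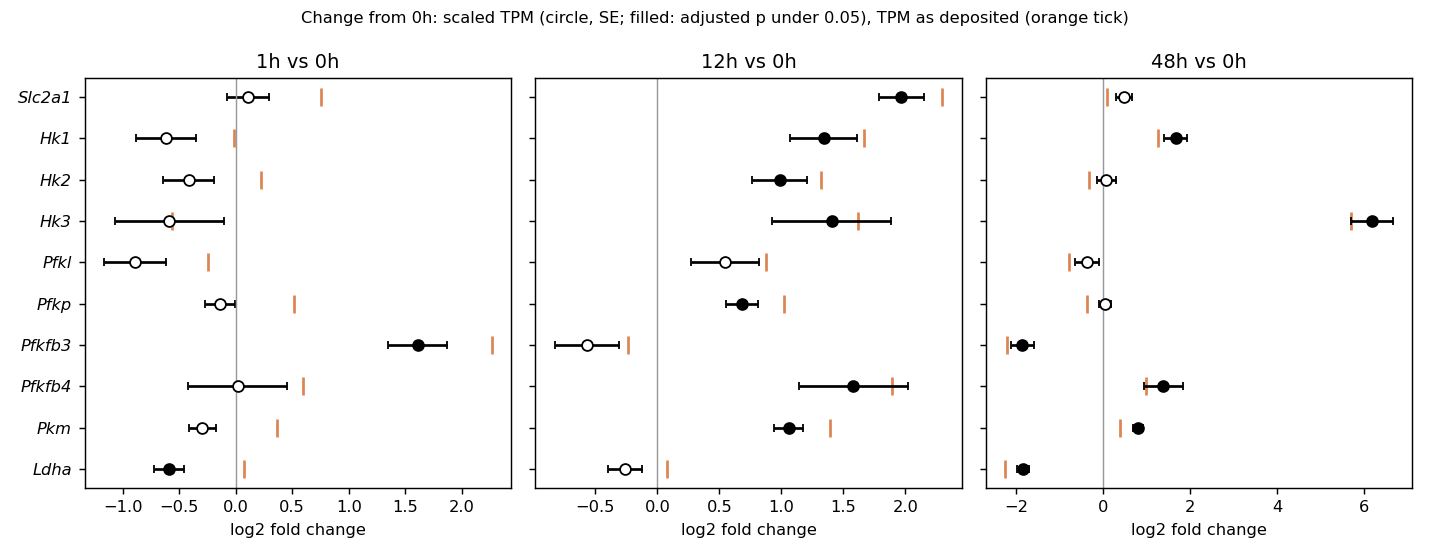
Log2 fold change of each gene (y axis) against 0h at 1h, 12h and 48h (x axes, which differ in range). Circles with SE bars are scaled TPM, filled where the limma adjusted p was under 0.05, and orange ticks are TPM as deposited. The ticks lie mostly to the right of the circles at 1h and 12h and to the left at 48h, while Pfkfb3 at 1h (1.61) and Hk3 (6.17) and Ldha (-1.84) at 48h lie far from 0 on both scales.

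With TPM as deposited, which shifts the changes of all genes, 3 members were called higher at 1h (24.1% of all genes higher, 1.41% lower) and 7 at 12h (22.3% and 7.82%), and 2 were higher and 2 lower after 48 h (15.9% and 27.2%), each against 0h. On that scale 6 members rose and 1 fell from 1h to 12h (6.98% and 15%), and 1 rose and 7 fell from 12h to 48h (4.1% and 31.7%). The 12h peak with both steps called was then found for Slc2a1, Hk2, Pfkl and Pkm, 4 genes as before, with Pkm in place of Pfkp.

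The genes whose course over the 12 libraries was most like that of a member were found by Pearson correlation of log2(scaled TPM + 0.1). They were sought among the 9330 genes whose mean TPM as deposited reached 1, and included the glycolytic genes Aldoa and Tpi1. Hk2 was closest to Aldoa, the glycolytic aldolase gene (r = 0.965), and Pfkl was closest to Tpi1, the triose phosphate isomerase gene (r = 0.964). Mvd, a gene of the mevalonate pathway, was among the 3 closest genes for both (r = 0.960 with Hk2 and 0.940 with Pfkl). Ldha was closest to Fdps, a gene of isoprenoid synthesis (r = 0.997), Mdh2, the mitochondrial malate dehydrogenase gene (r = 0.994), and Vdac1, a mitochondrial outer membrane channel gene (r = 0.988). Hk3 was closest to Oas3, Prnp and Ifit3b (r = 0.993, 0.989 and 0.988), of which Oas3 and Ifit3b are known as interferon-induced genes. Slc2a1 was closest to Selenos and Plpp5 (r = 0.971 for both), and its next closest gene was Camp, one of the granulocyte markers (r = 0.963), whose part in the Slc2a1 result was not tested. Hk1 was closest to Adam15 (0.970), Pfkp to Alg2 (0.950), Pfkfb3 to Arhgap35 (0.973), Pfkfb4 to Glg1 (0.921) and Pkm to Ralb (0.985). Between members, r was highest for Hk1 with Pkm (0.921) and lowest for Hk3 with Ldha (-0.849). The libraries fall into 4 time points that share their scaling, so these values describe the shape of the time course and are not independent measurements.

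Of 104 other genes of glucose metabolism, 82 passed the filter. After 12 h, 31 of them had risen and 9 had fallen, with a median log2 fold change of 0.33 against 0.07 for all genes, of which 16% were higher and 14.5% lower. After 48 h, 20 had risen and 21 had fallen, with a median of 0.06 against 0.07 for all genes, of which 24.5% were higher and 22% lower, so that the counts at 48h were near the background. With TPM as deposited the counts were 36 and 8 at 12h and 16 and 28 at 48h. Among the other glycolytic enzymes, 7 of 12 tested had risen and 2 had fallen after 12 h, and after 48 h 3 were above and 3 below 0h. Eno1, the main enolase gene, started at 78.2 ± 0.348 scaled TPM (SD, n = 3), reached 124 ± 5.95 in the 12h libraries and ended at 47.1 ± 12.4, and its 48h value was lower than that of 0h (log2 fold change -0.76, SE 0.16, adjusted p 0.00228). Pgam1, the phosphoglycerate mutase gene, was higher at 12h (1.09) and still at 48h (0.56, SE 0.13, adjusted p 0.00331), the latter not with TPM as deposited (0.15, adjusted p 0.447). Gapdh, often used as a reference gene, was at 167 ± 23.0 scaled TPM at 0h and 170 ± 9.90 at 48h (log2 fold change 0.03, SE 0.15, adjusted p 0.889, limma). These end points do not give its whole course. Its TPM as deposited were 160, 140 and 162 at 0h and 187, 216 and 169 at 1h. They were 254, 251 and 239 at 12h and 106, 129 and 121 at 48h. These deposited values were not divided by the size factors. Those factors were 0.840 to 1.03 at 0h, 1.33 to 1.56 at 1h, 1.07 to 1.35 at 12h and 0.627 to 0.752 at 48h. The rise at 1h and the fall at 48h in the deposited values therefore cannot be read as changes on the scaled TPM used for the end points. Hkdc1 reached at most 0.0266 scaled TPM, and Pklr, the liver and red cell pyruvate kinase gene, was above 0 only at 12h, where its mean was 0.0214.

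The other transporter genes changed in both directions. Slc2a6, a lysosomal hexose transporter gene, had a mean of 0.316 scaled TPM before induction, 14.3 after 12 h and 25.9 after 48 h (log2 fold change at 48h 5.99, SE 0.37, adjusted p 2.13e-07). Slc16a1, which encodes the lactate and pyruvate carrier MCT1, fell from 8.16 to 1.65 and 0.569 (-3.63, SE 0.14, adjusted p 8.53e-09), in the same direction as Ldha. Slc2a3, the gene of the transporter GLUT3, did not pass at any time point (-0.66 at 48h, adjusted p 0.108), but it did at 48h with TPM as deposited (-1.04, adjusted p 0.0389). Of the 8 transporter genes tested, 2 were higher and 1 lower at 48h, where 24.5% of all genes were higher and 22% lower.

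The oxidative entry of the pentose phosphate pathway, which draws on the glucose-6-phosphate made by hexokinase, held large changes. G6pdx, the glucose-6-phosphate dehydrogenase gene, had means of 3.49 ± 1.32 and 8.99 ± 1.78 scaled TPM in the 0h and 1h groups, and of 47.2 ± 1.27 and 35.8 ± 1.48 in the 12h and 48h groups. Pgd, the gene of the next dehydrogenase, started at 7.53 ± 0.680, reached 56.4 ± 3.84 after 12 h and was at 30.9 ± 5.78 after 48 h. Both were called higher at 48h (3.39 and 2.01, adjusted p 3.78e-07 and 1.75e-06). Pgls, which stands between them in the pathway, fell (-2.34, adjusted p 9.93e-05), as did Prps1, a gene of ribose phosphate use (-3.41, adjusted p 3.72e-06). Of the 11 genes of the list 2 were higher and 4 lower at 48h, a total near the 46.5% of all genes called in either direction.

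Of 10 glycogen genes, 6 were higher at 12h (16% of all genes) and 2 at 48h (24.5% of all genes), among them Ugp2, which makes UDP-glucose (2.61 at 48h, SE 0.18, adjusted p 6.1e-07). The pyruvate dehydrogenase list, which opens the way into mitochondria, held 1 higher and 6 lower of 11 at 48h. Of all genes, 24.5% were higher and 22% lower at 48h (46.5% in either direction). In it Pdha1, the catalytic subunit gene, fell by 1.72 on the log2 scale (SE 0.17, adjusted p 9.49e-06) and the phosphatase gene Pdp2 fell by 1.35 (SE 0.21, adjusted p 0.000299), while the kinase gene Pdk3 rose (0.65, adjusted p 0.0412), not so with TPM as deposited (0.25, adjusted p 0.491). Of 4 gluconeogenesis genes tested, 1 was higher and 3 lower at 48h, beside the same 24.5% and 22% of all genes. Among them Pck2 was at -2.65 (limma adjusted p 5.44e-06) and G6pc3 at -1.16 (limma adjusted p 0.0208). In the list of 3 with Pfkfb1, Pfkfb2 and Tigar, no gene was called by limma in any comparison, and none had an unadjusted p under 0.05.

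Among regulators of the pathway 6 of 11 were higher and 1 lower at 48h, where 24.5% of all genes were higher and 22% lower. Txnip, whose product restrains glucose uptake, rose from 5.70 ± 1.55 scaled TPM before induction to 12.6 ± 0.439 after 12 h and 78.4 ± 11.3 after 48 h (3.78, SE 0.19, adjusted p 4.47e-08). Mlxip, the gene of a glucose-sensing partner, rose as well (1.48, adjusted p 1.62e-05). Hif1a went from 4.64 ± 0.988 to 10.2 ± 0.708 at 12h and 9.17 ± 2.06 at 48h (0.96 at 48h, adjusted p 0.00181, and 0.56 with adjusted p 0.0648 with TPM as deposited). Myc stood at 32.3 ± 1.63 before induction, at 15.2 ± 0.826 after 1 h and at 12.4 ± 1.06 after 48 h (-1.38 at 48h, adjusted p 1.16e-05). Of 13 known HIF targets outside glycolysis, 5 had risen and 0 had fallen after 12 h, where 16% of all genes were higher and 14.5% lower. After 48 h, 3 of the 13 had risen and 3 had fallen, shares near those of all genes (24.5% and 22%). At 48h Bnip3l (1.77) and P4ha1 (1.48) were higher, and Vegfa (-1.48) and Ddit4 (-1.27) were lower, all with limma adjusted p of at most 0.0225.

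**Figure D4:**
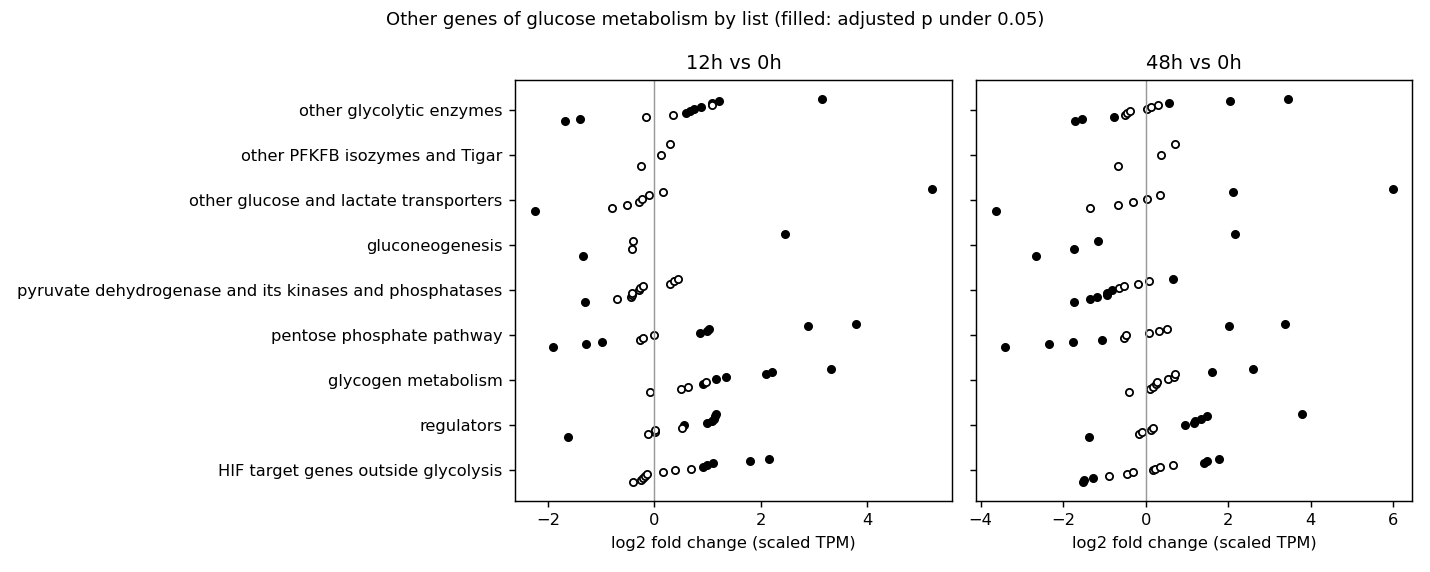
Log2 fold change on scaled TPM (x axes, which differ in range) of the other genes of glucose metabolism at 12h and 48h against 0h, by list (y axis). Each point is a gene, filled where the limma adjusted p was under 0.05. Glycogen, glycolytic and regulator genes lie mostly to the right at 12h, and pyruvate dehydrogenase genes lie mostly to the left at 48h.

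The PCHi-C lists give the restriction fragments in contact with each promoter fragment (bait). All 10 genes had at least 1 bait. The replicates had been merged, so there is 1 list per time point and no test of a difference was made here. The study compared the time points with Chicdiff, and those results were not used here. The lists themselves are not alike. At 0h the last column holds CHiCAGO scores from 5 upwards. At 1h, 12h and 48h it holds whole numbers from 2 upwards whose unit is not given in the sources used here. Only the presence of an interaction was therefore used. The paper states a CHiCAGO cut-off score of 5, which could not be checked in the lists of the later time points. The lists also differ in size, with 138769, 145918, 140782 and 152589 interactions at 0h, 1h, 12h and 48h, and the counts below were not adjusted for this. Over 23193 genes with a bait the median was 5 listed interactions at each time point.

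Hk3 had no listed interaction at 0h or 1h, 1 at 12h and 8 at 48h, and of the 8 fragments contacted at 48h 6 lay 27.2 to 51.8 kb upstream of the gene. This is also the gene whose RNA appeared at 48h. Hk2 had 11, 1, 9 and 21 listed interactions in the order of the time points. At 0h all 11 fragments lay 254 to 1138 kb upstream and 9 of them carried the start of another gene, whereas at 48h 17 of the 21 lay 34.6 to 127 kb upstream. With a CHiCAGO score of at least 10, which can be applied to the 0h list only, none of the 11 Hk2 interactions at 0h remained, nor any of the 3 of Pfkfb3 or the 16 of Ldha. For Hk2, none of the 0h or 1h fragments and 6 of those at 12h fell within 150 kb of the gene. The most Hk2 interactions were thus listed at 48h, when its RNA was back at the range of 0h, and not at 12h, when its RNA was highest.

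Pfkfb3 had 3, 6, 12 and 17 interactions at 0h, 1h, 12h and 48h, at a median distance of 162, 161, 161 and 155 kb from the bait, and 2 of its 20 fragments were listed at all 4 time points. Its interactions were most numerous at 48h, when its RNA was lowest. Pfkp had 14, 9, 6 and 5, and Pfkfb4 had 16, 10, 12 and 4, with fewer interactions at 48h, when its RNA was above that of 0h. Ldha had 16, 3, 6 and 13. Pfkl had the most of the members up to 12h (21, 28 and 20) and 18 after 48 h, almost all upstream. Pkm had 7, 10, 12 and 12, Hk1 had 4, 6, 7 and 7, and Slc2a1 had 1, 3, 4 and 3, of which a fragment 107 kb upstream was listed at all time points. The count of interactions and the RNA level therefore did not follow a common order over the 10 genes, and their relation was not tested.

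Of the 93 interactions of the members at 0h, 44 were listed again at 1h, 42 at 12h and 40 at 48h. These are 47.3% (95% Wilson interval 37.5 to 57.4), 45.2% (35.4 to 55.3) and 43.0% (33.4 to 53.2), against 57.6%, 53.2% and 55.9% of all 138769 interactions. The intervals cover counting error only and treat interactions as independent, although those of a gene share a bait.

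**Figure D5:**
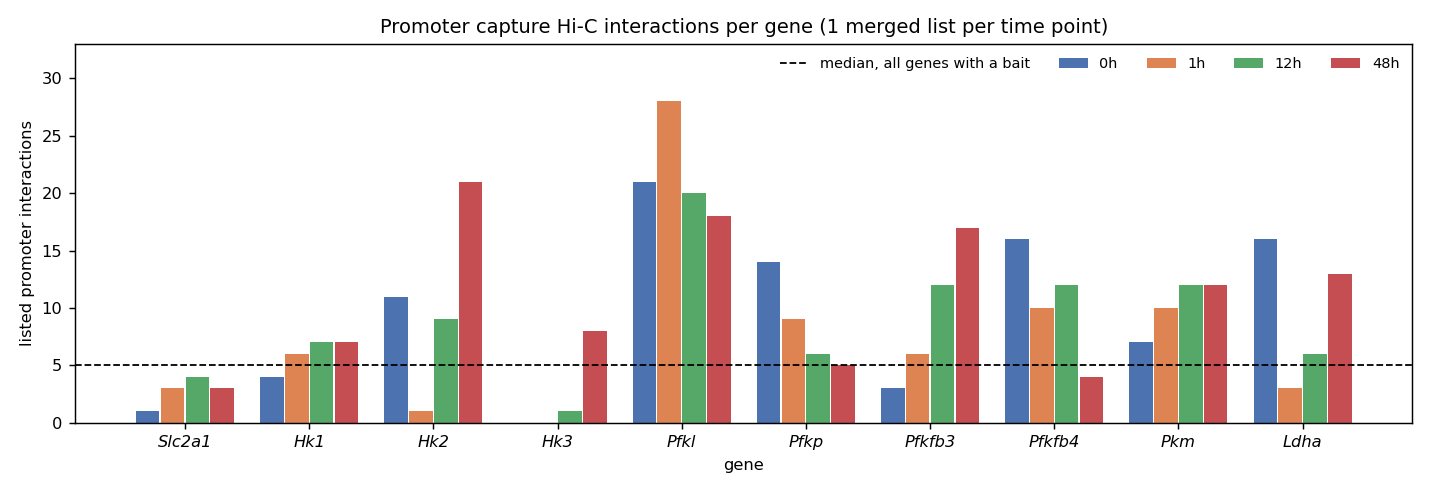
Number of listed PCHi-C interactions (y axis, from 0) of each gene (x axis) at 0h, 1h, 12h and 48h (bars), each from 1 merged list without replicates. The dashed line is the median of 5 over all genes with a bait, and Hk2 (21) and Pfkfb3 (17) stand highest at 48h among their own time points, with Hk3 at 8.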

How the data were processed

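RNA was measured in 12 libraries, 3 biological replicates (bioRep in the labels) at each of 4 time points. The authors deposited TPM values per gene, not scaled further between libraries. The submitters' processing notes name Trim Galore 0.6.2, HISAT2 2.1.0, RSEM and mm10. The authors also deposited 1 list of promoter capture Hi-C interactions per time point from merged replicates, with CHiCAGO scores at 0h and, at the later time points, whole numbers whose meaning is not given in the sources used here. Hi-C matrices were not analysed here, and no column of per-sample values was left unassigned (0).

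TPM were divided by median-of-ratios size factors. Genes with a mean of at least 0.1 TPM were kept, and log2(scaled TPM + 0.1) was fitted in limma 3.58.1 (R 4.3.3) with the 4 time points as groups and all 12 libraries sharing the estimate of spread, with a mean-variance trend, two-sided tests and Benjamini-Hochberg adjustment over all genes. No count test was used, since the files hold no counts. The p-values measure the spread between these libraries. TPM keep no depth, so no counting intervals were given for RNA. Shares of isozymes were tested by exact permutation, two-sided. On simulated data for 48h vs 0h (16415 genes), 36% of the 100 genes changed by 1 on the log2 scale and 77% of the 100 changed by 2 were recovered, and 9 unchanged genes were called. Only these genes were changed in the simulation, whereas 46.5% of all genes were called at 48h vs 0h in the data. The adjustment was therefore stricter in the simulation, and its values do not measure how many changes the tests here recovered or missed.

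All 10 members were described. From each pathway list, up to 2 genes with the largest increase and 2 with the largest decrease at 48h vs 0h were named, among those called with a mean of at least 1 TPM. Isozymes of members (Hkdc1, Pfkm, Pfkfb1, Pfkfb2, Ldhb, Slc2a3, Pklr) and Gapdh, Hif1a and Myc were also named, as were the 3 genes most correlated with each member, not all of which are printed. Tigar and the marker genes were named outside this rule, after their values were seen. A further gene that the rule names is not reported here. The members and lists were chosen with earlier results of these data known. Alternatives were other scalings, pseudocounts, filters and fits, the replicate number as a block, each library left out in turn, and other thresholds and distances for the interactions.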

Additional observations from a re-analysis of the deposited data

How the results depend on the processing

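Of the 50 member results (10 genes in 5 comparisons) 31 were called, and over 22 alternatives their 682 values kept direction and call 635 times, lost the call 46 times and turned direction once, for Ldha at 1h with TPM as deposited. The number of members called at 1h fell from 2 to 1 with rescaling to the genes outside the 20 most abundant, with quantile normalization, without the mean-variance trend and with a log2 fold change beyond 1, and that from 12h to 48h fell from 7 to 4 with the last of these. Leaving out each library in turn gave 1 to 3 members called at 1h, 5 to 7 at 12h and 5 to 7 at 48h against 0h, 7 to 9 from 1h to 12h and 5 to 7 from 12h to 48h, and 36 to 49 pathway genes at 48h against 41.

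With TPM as deposited the log2 fold change at 1h was 0.22 for Hk2, 0.52 for Pfkp (against -0.14, and called there with adjusted p 0.0496), 0.37 for Pkm and 0.0721 for Ldha (against a called -0.59), at 12h it was 0.0749 for Ldha, at 48h it was -0.32 for Hk2 and -0.36 for Pfkp, and from 12h to 48h it was -0.40 for Hk1. Rescaling to the genes outside the 20 most abundant gave 0.0296 at 1h and -0.0267 at 48h for Pfkp, and quantile normalization gave 0.0127 and -0.0407 for Pfkp and -0.13 at 1h for Pfkfb4. Leaving out a library gave -0.0199 to 0.20 for Slc2a1 and -0.44 to 0.37 for Pfkfb4 at 1h, and -0.0827 to 0.25 for Hk2 and -0.0725 to 0.12 for Pfkp at 48h. The 48h minus 0h shares then ranged from -5.83 to -0.091 percentage points for Hk1, -8.82 to -0.98 for Pfkl and 6.79 to 15.0 for Pfkp. The cause of these changes was not tested.

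With a CHiCAGO score of at least 10 the interactions at 0h were 0 for Slc2a1, Hk2, Pfkfb3 and Ldha, 1 for Hk1, Pfkp and Pkm, 2 for Pfkfb4 and 6 for Pfkl. At least 20 kb from the bait, Pfkp kept 2 at 12h and 2 at 48h. Counting a fragment within 10 kb as the same, 75.3%, 66.7% and 69.9% of the members' 0h interactions were listed again at 1h, 12h and 48h, against 85.6%, 82.2% and 80.9% of all interactions.

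The labels give all time points the same replicate numbers. Same-numbered libraries deviated together with correlations of -0.011 to 0.257 and not above 0.1 for every pair in any comparison, so the main fit did not pair the samples. The higher values were mostly those of replicate 3. Its correlations were 0.257, 0.081 and 0.252 for 1h, 12h and 48h with 0h, 0.121 for 12h with 1h and 0.195 for 48h with 12h. Replicate 1 gave 0.015 to 0.107 and replicate 2 gave -0.011 to 0.032. A structure tied to replicate 3 is thus not excluded. With the replicate number as a block, 3, 6 and 6 members were called at 1h, 12h and 48h against 0h, 9 from 1h to 12h and 7 from 12h to 48h, with 47 pathway genes at 48h. The block moved Pfkl at 1h past the threshold (adjusted p 0.0217) and Hk3 at 12h below it (0.059).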
